A study of Mus musculus with 2 samples.

Results

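Smooth muscle cells of the mouse aorta were selected from single-cell RNA sequencing libraries of whole aorta by marker gene counts. A cell was included when it had at least 5 unique molecular identifiers (UMIs, counts of captured RNA molecules) of Myh11, at least 1 UMI of at least 2 of the 5 genes Cnn1, Lmod1, Synpo2, Npnt and Itga8, and 0 UMIs of each of Ptprc, Pdgfra and Cdh5. Of 11168 kept cells of the Cept1 sample, 603 met this rule (5.40%, 95% exact binomial interval 4.99 to 5.83), and of 8729 kept cells of the control sample, 507 did (5.81%, 5.33 to 6.32). Together these were 1110 of 19897 kept cells, where a kept cell had 500 or more genes and a mitochondrial share of up to 10%.

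The Cept1 sample was aorta of male Cept1fl/fl Cre+ mice on the C57BL6 background. These mice carried VE-cadherin-Cre-ERT2, a Cre recombinase that tamoxifen activates and that is driven by the promoter of an adhesion gene of endothelial cells. The labels call this a model of Cept1 overexpression in endothelium but give the Cept1 allele as floxed only, without the construct that raises it, so what the ratios below compare is Cre+ with Cre- aortas. The control sample was aorta of male Cept1fl/fl Cre- mice of the same background, so the floxed genotype was shared by both groups. The labels describe tamoxifen as 5 injections of 1 mg on successive days, begun no earlier than 8 weeks of age and followed by 5 days without treatment, while the age field reads 6 to 8 weeks. Whether Cre- mice were injected too is not explicit there. Aortas ran from the arch to the distal bifurcation (n = 3 per condition) and were digested enzymatically, and each group yielded 1 library of 10x Genomics 3′ v3 chemistry. The Cre driver acts in endothelial cells, so the smooth muscle cells described here are neighbours of the targeted cells. With 1 library per group no difference was tested, and every interval covers counting error only.

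Vascular smooth muscle cells form the medial layer of the aorta, where actin and smooth muscle myosin generate tone and where the cells lay down elastin and collagen. Their contractile genes are driven by serum response factor and its partner myocardin. After injury or under lipid load these cells can lower contractile genes and raise matrix, adhesion and inflammatory genes, a state called modulated. Their embryonic origin and Hox gene expression differ along the vessel, from the neural crest derived arch to the abdominal aorta.

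The libraries held 95735360 UMIs over 17728 barcodes in the Cept1 sample and 88220524 UMIs over 14349 barcodes in the control sample. Selected cells had medians of 10496 UMIs and 3508 genes in the Cept1 sample and of 14400 UMIs and 4236 genes in the control sample, and median mitochondrial shares of 5.83% and 5.52%. The selected cells of the control sample were therefore deeper, although the medians over all kept cells were 6438.5 UMIs in the Cept1 sample and 6735 UMIs in the control sample. The libraries shared 74 barcodes, of which 2 belonged to selected cells of the Cept1 sample and 3 to selected cells of the control sample. Levels (CPM) are UMIs of a gene scaled to 1000000 UMIs of the selected cells, and each log2 ratio sets the level in the Cept1 sample over that in the control sample. They rest on 6555887 UMIs in the Cept1 sample and 7563666 UMIs in the control sample.

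The selecting counts themselves were well above the threshold in most cells. Myh11, the smooth muscle myosin heavy chain, had a median of 46 and a highest value of 228 UMIs per selected cell in the Cept1 sample, against a median of 64 and a highest value of 390 UMIs in the control sample. Exactly 5 Myh11 UMIs, just inside the threshold, were found in 8 cells of the Cept1 sample and 7 cells of the control sample. Exactly 4, just outside it with the other conditions met, were found in 6 and 14 cells. The rule on Ptprc, Pdgfra and Cdh5 removed 260 of 863 cells of the Cept1 sample and 230 of 737 cells of the control sample that met the positive conditions. Pdgfra, a fibroblast receptor, accounted for more of these losses (147 and 161 cells) than the leukocyte gene Ptprc (62 and 61 cells) or the endothelial gene Cdh5 (78 and 50 cells). In the summed counts used below, fewer molecules per cell and fewer cells that express a gene cannot be told apart, so shares of cells are given beside some of the genes.

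**Figure D1:**
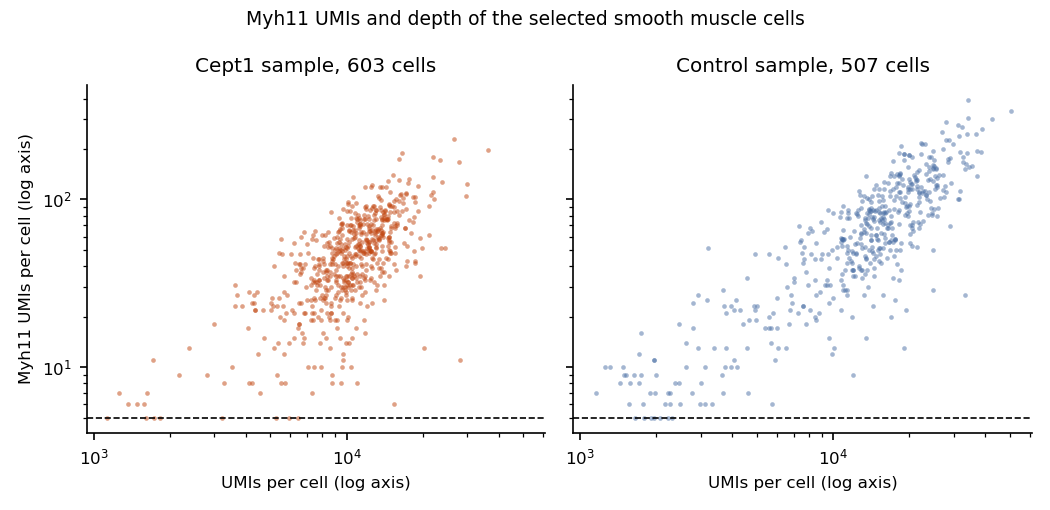
Myh11 UMIs (vertical, log axis) against total UMIs (horizontal, log axis) of each selected cell, with 603 cells of the Cept1 sample at the left and 507 cells of the control sample at the right. The dashed line marks the threshold of 5 UMIs, and the points of the control sample reach further up and to the right, with highest values of 390 UMIs against 228 UMIs in the Cept1 sample.

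Of the smooth muscle marker set, Myh11, Cnn1, Lmod1, Npnt and Itga8 were part of the rule and Sost was the 1 marker outside it. The set summed to 10523 CPM in the Cept1 sample and 11371 CPM in the control sample, where all other kept cells had 414 and 582 CPM, a gap that the selection itself sets. Sost, which encodes the Wnt inhibitor sclerostin and played no part in the selection, had UMIs in 76.9% of selected cells of the Cept1 sample (73.4 to 80.3) and 78.1% of those of the control sample (74.2 to 81.6). Leukocytes, here the kept cells with Ptprc UMIs and 0 Myh11 UMIs, had Sost UMIs in 2.14% and 2.24% of cells, at median depths of 7779 and 7649 UMIs. After each selected cell was thinned to 2000 UMIs, the Sost share was 57.0% in the Cept1 sample and 60.2% in the control sample, with overlapping intervals of 52.9 to 61.0 and 55.7 to 64.6.

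Marker sets of most other cell types were present at lower levels than in the remaining cells. The endothelial set summed to 348 CPM in the Cept1 sample and 274 CPM in the control sample, against 2672 and 2229 CPM in all other kept cells, with Cdh5 at 0 by the rule. The fibroblast set summed to 1767 and 1948 CPM against 17799 and 18950 CPM elsewhere, and the leukocyte set to 185 and 159 CPM against 6204 and 6242 CPM. Pdgfra of the fibroblast set and Ptprc of the leukocyte set were likewise at 0 by the rule. The gaps of these 3 sets are therefore set in part by the selection. The pericyte and striated muscle sets were the exceptions. The pericyte set summed to 1934 CPM in the Cept1 sample and 2658 CPM in the control sample, above the 313 and 378 CPM of all other kept cells, and most of it was Rgs5. The striated muscle set summed to 79.3 CPM in the Cept1 sample and 57.2 CPM in the control sample, above the 10.6 and 13.7 CPM of all other kept cells. Of this, Actc1, cardiac alpha actin, made up 58.6 and 38.9 CPM, while Myh6, the cardiac myosin heavy chain, had 1 and 4 UMIs. Haemoglobin and platelet genes reached 3195 CPM in the Cept1 sample and 2058 CPM in the control sample. The adipocyte set stayed at 1.83 and 2.64 CPM, with Adipoq at 0 UMIs in both libraries. The part of these other cell types in the differences below was not tested.

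The genes that differed most among the selected cells were those of haemoglobin. Heterogeneity was measured as the variance over the mean of the UMIs of cells thinned to 2000 UMIs. The median over genes with a mean of at least 0.2 UMIs was 1.10 in the Cept1 sample and 1.11 in the control sample. The first 4 ranks were haemoglobin genes, with 280 for Hbb-bs in the Cept1 sample and 135 in the control sample, and its UMIs were found in only 13.8% and 15.3% of thinned cells. The nuclear noncoding RNA Malat1 came next, with 19.9 in the Cept1 sample and 21.5 in the control sample, and Gm42418, which overlaps ribosomal RNA sequence, had 10.3 and 12.7. Mgp, an inhibitor of calcification, had 15.8 and 9.19, and Rgs5, a regulator of G protein signalling, had 12.8 and 8.94. Eln, the elastin gene, had 12.3 in the Cept1 sample and 5.08 in the control sample. The highest Eln count of a thinned cell was 148 UMIs in the Cept1 sample and 31 UMIs in the control sample. Fos, an immediate early transcription factor that enzymatic digestion can induce, had 8.60 and 12.2, and Dcn, a fibroblast marker, had 17.6 and 8.39. The highest Dcn count of a thinned cell was 57 UMIs in the Cept1 sample and 23 UMIs in the control sample. A single cell with such a count weighs heavily on the variance, and the values without it were not computed.

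The contractile programme was expressed at close levels in the 2 libraries. Of 28 contractile apparatus genes, 27 had at least 50 UMIs over both libraries, the minimum for a gene to be measured, and 6 of them were higher and 21 lower in the Cept1 sample. Their median log2 ratio was -0.09, beside -0.02 over all 11038 measured genes (interquartile range -0.19 to 0.15), and none was past 2-fold in either direction. The list's summed level per cell had a median of 61209 CPM in the Cept1 sample (lowest 6673, highest 138604) and 67562 CPM in the control sample (lowest 9931, highest 147077), so the cells of the 2 libraries overlapped over nearly the whole range.

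**Figure D2:**
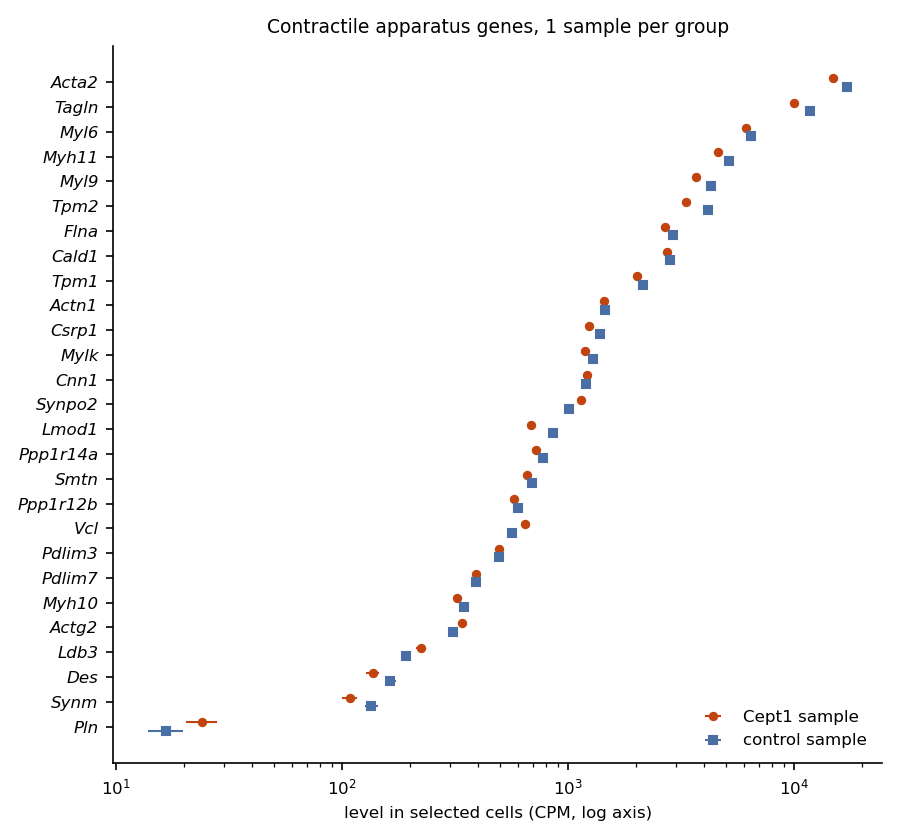
Levels of the 27 measured contractile apparatus genes in the summed selected cells (horizontal, CPM, log axis), with circles for the Cept1 sample above squares for the control sample and bars for the 95% Poisson interval. Points of a gene lie close together throughout, and the ratios span -0.33 to 0.52 on the log2 scale.

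Single contractile genes differed by small amounts. Smooth muscle actin, Acta2, had 14940 CPM in the Cept1 sample and 17098 CPM in the control sample, a log2 ratio of -0.19 (-0.21 to -0.18). Tagln, which encodes the actin-binding protein transgelin, had a log2 ratio of -0.24, the tropomyosin Tpm2 -0.33 and the actin filament nucleator Lmod1 -0.32. These ratios lay below that of most genes, while Cnn1, calponin, was at 0.01 and Itga8, an integrin subunit, at -0.00. Lmod1, Cnn1 and Itga8 were part of the selection rule, so their levels in selected cells are set in part by the selection. Pln, phospholamban, which restrains the calcium pump of the sarcoplasmic reticulum, stood at the upper end with 157 UMIs in the Cept1 sample and 126 UMIs in the control sample, a log2 ratio of 0.52 (0.18 to 0.87). In thinned cells the Pln ratio was -0.19, with the opposite sign.

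Myocardin was the highest of the smooth muscle transcription factors. Myocd, the coactivator of contractile genes, had 665 CPM in the Cept1 sample and 469 CPM in the control sample, a log2 ratio of 0.50 (0.44 to 0.57). It had UMIs in 64.9% of thinned cells of the Cept1 sample (60.9 to 68.8) and 53.6% of those of the control sample (49.1 to 58.1). Myocd was also higher in all other kept cells, with a log2 ratio of 1.05, and its thinned share in leukocytes was 11.6% in the Cept1 sample and 3.08% in the control sample. The Myocd ratio was thus larger in the remaining cells than in the selected ones, a difference that was not tested. Of 20 measured factors, 13 were higher and 7 lower, at a median of 0.20 and none past 2-fold. Mef2a had 0.25, Nr4a1 0.27 and Srf, serum response factor itself, -0.13. Heyl, a Notch effector, had the lowest ratio of the list at -0.33.

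Receptors for vasoactive ligands tended to lower values in the Cept1 sample. Of 24 such genes and members of cGMP signalling, 16 were measured, of which 5 were higher and 11 lower, at a median of -0.12 and none past 2-fold. Of all measured genes 53.3% were lower. The list median was -0.10 in all other kept cells. Over the alternatives it ran from -0.36 in thinned cells to 0.03 without the rule on Ptprc, Pdgfra and Cdh5. Rgs5, which damps signals of these receptors, had 1411 CPM in the Cept1 sample and 2103 CPM in the control sample, a log2 ratio of -0.58 (-0.61 to -0.54). The share of thinned cells with Rgs5 UMIs was 40.8% in the Cept1 sample (36.8 to 44.9) and 58.0% in the control sample (53.4 to 62.4). These intervals treat the cells of a library as independent and do not cover the spread between animals. Leukocytes had Rgs5 in 0.936% and 1.35% of thinned cells. Ptger3, a prostaglandin E2 receptor, had 79 UMIs in the Cept1 sample and 162 UMIs in the control sample (log2 ratio -0.83, -1.24 to -0.43), and in thinned cells its ratio had the opposite sign at 0.23. P2rx1, an ATP-gated channel, had -0.64 and the adrenergic receptor Adra1a -0.70. Both receptor ratios turned positive among cells without posterior Hox UMIs, at 0.14 for P2rx1 and 0.80 for Adra1a. The Adra1a value rests on 20 UMIs in the Cept1 sample and 8 UMIs in the control sample. Its interval of -0.44 to 2.19 spans both signs.

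Calcium channels and pumps showed no common direction. Of 21 measured genes, 13 were higher and 8 lower, at a median of 0.05 and 1 past 2-fold higher. Slc8a1, the sodium-calcium exchanger, had a log2 ratio of 0.41 and the potassium channel gene Kcnq5 one of 0.44. The 1 gene past 2-fold was the cation channel Trpc6, with only 39 UMIs in the Cept1 sample and 13 UMIs in the control sample (1.79, 0.86 to 2.82).

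Extracellular matrix genes differed gene by gene. Fbln5, fibulin 5, which is needed to assemble elastic fibres, had 663 CPM in the Cept1 sample and 432 CPM in the control sample, a log2 ratio of 0.62 (0.55 to 0.68). Its UMIs were found in 65.4% of thinned cells of the Cept1 sample (61.4 to 69.3) and 47.6% of those of the control sample (43.1 to 52.2), with 9.79% and 9.07% in leukocytes. The Fbln5 share was therefore higher in the Cept1 sample at equal depth. Eln had a ratio of 0.09 with 2889 CPM in the Cept1 sample and 2708 CPM in the control sample, and Fbln7 one of -0.67. Over the elastic fibre list 11 genes were higher and 8 lower, at a median of 0.06 and none past 2-fold.

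Ccn2, a matricellular protein induced by TGF beta and by stretch, stood apart among proteoglycans and matricellular genes. It had 2478 CPM in the Cept1 sample and 1387 CPM in the control sample, a log2 ratio of 0.84 (0.80 to 0.87), where all other kept cells had a ratio of 0.18. In thinned cells the share with Ccn2 was 79.9% in the Cept1 sample (76.5 to 83.1) and 68.1% in the control sample (63.8 to 72.3), against 5.93% and 6.16% in leukocytes. Over the list, 11 of 21 measured genes were higher and 10 lower, at a median of 0.01 and none past 2-fold. Aspn, a small proteoglycan, had 0.57, and Comp, a cartilage matrix protein, had -0.61. Collagens and basement membrane genes were balanced at 12 higher and 11 lower at a median of 0.01, from Col4a6 at 0.37 to Col8a1 at -0.64.

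Genes of modulated smooth muscle cells gave a list median that depended on the weighting of cells. By summed UMIs, 13 of 18 measured genes were higher and 5 lower in the Cept1 sample, with a median of 0.33 and 1 past 2-fold higher, and the median in all other kept cells was 0.08. The median turned to -0.23 when every cell had equal weight, to -0.18 in thinned cells and to -0.06 without the rule on Ptprc, Pdgfra and Cdh5. Cd44, a hyaluronan receptor, had a log2 ratio of 0.66 and Lgals3, galectin 3, one of 0.67. The single gene past 2-fold, the matrix protease gene Mmp3 (71 UMIs in the Cept1 sample, 33 UMIs in the control sample), had a ratio of 1.31, and one of -0.15 without the rule on Ptprc, Pdgfra and Cdh5.

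Osteogenic and chondrogenic genes were split, with 6 higher and 7 lower of 13 measured and a median of -0.16. Bmp2, a bone morphogenetic protein, was the 1 gene past 2-fold, with 226 UMIs in the Cept1 sample and 119 UMIs in the control sample (log2 ratio 1.13, 0.81 to 1.46). Its thinned share of 5.06% in the Cept1 sample and 3.52% in the control sample was close to the 5.50% and 3.33% of leukocytes, whose own Bmp2 expression was not examined, so no difference is read from these shares. The level was 34.5 CPM in the Cept1 sample and 15.7 CPM in the control sample, beside 23.6 and 18.3 CPM in all other kept cells, and the ratio was positive in each of 13 alternatives, from 0.75 to 1.48. Sost had 816 CPM in the Cept1 sample and 950 CPM in the control sample, a log2 ratio of -0.22, and the Wnt inhibitor gene Wif1 had one of -0.69.

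In TGF beta and BMP signalling, 16 of 22 measured genes were higher and 6 lower, at a median of 0.09 and none past 2-fold. Tgfb2, a TGF beta ligand, had 332 CPM in the Cept1 sample and 206 CPM in the control sample, a log2 ratio of 0.69 (0.59 to 0.78). Its thinned share was 39.6% in the Cept1 sample (35.7 to 43.7) and 30.8% in the control sample (26.8 to 35.2), and leukocytes had 2.14% and 2.03%. The receptors Tgfbr1 and Tgfbr2 had ratios of 0.16 and 0.17, and Smad6, an inhibitory mediator, had -0.42. Notch genes numbered 5 higher and 4 lower at a median of 0.09, with Notch3, the main Notch receptor of arterial smooth muscle, at 0.26. Growth factors and their receptors numbered 13 higher and 14 lower at a median of -0.01, and 2 were past 2-fold higher, among them Igfbp2.

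**Figure D3:**
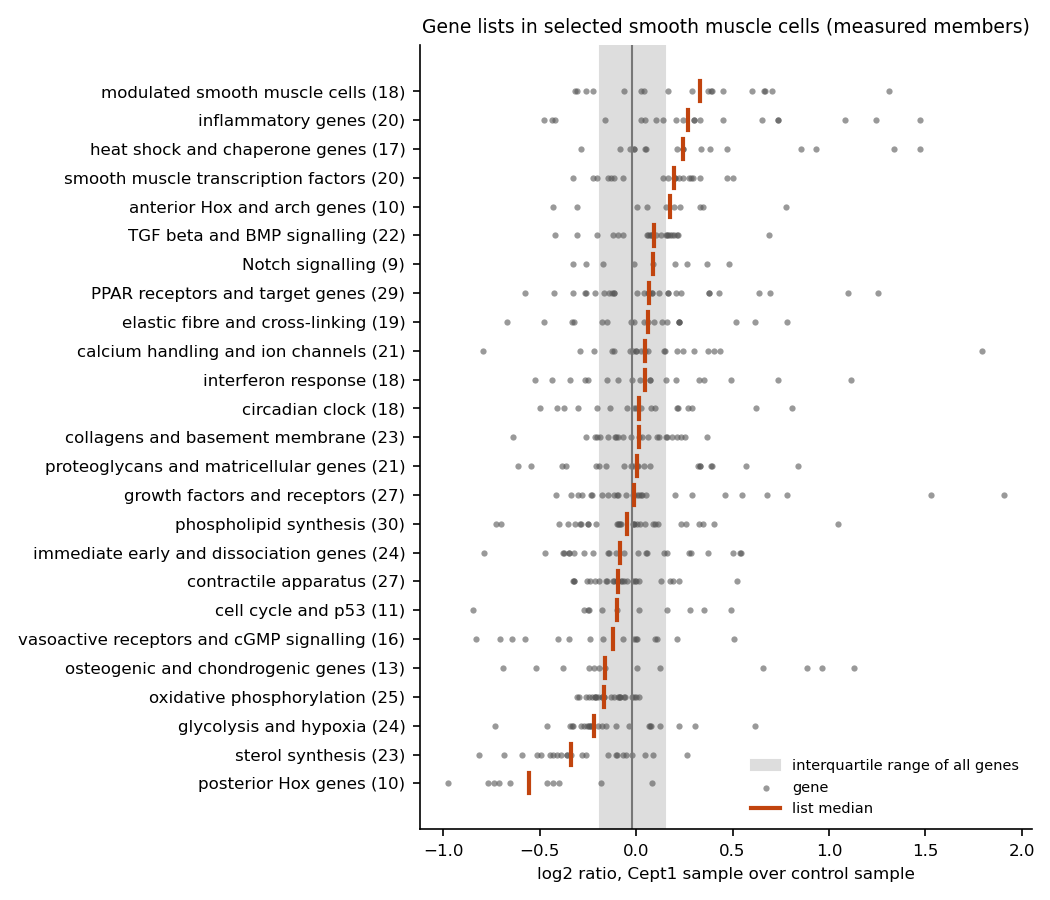
Log2 ratios, the Cept1 sample over the control sample (horizontal), of the measured genes of each of 25 gene lists (rows, with the number of measured genes), as grey points with the list median as a bar. The grey band is the interquartile range of all 11038 measured genes, from -0.19 to 0.15, and the list medians run from 0.33 for modulated smooth muscle genes to -0.56 for posterior Hox genes.

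Over all measured genes, 96 of 11038 (0.870%) were at least 2-fold higher and 83 (0.752%) at least 2-fold lower in the Cept1 sample. Any higher ratio was found for 46.7% of genes and any lower ratio for 53.3%. Against this background, lists with 1 to 3 members past 2-fold are small counts, and the list sizes of 9 to 30 measured genes allow no more than a description.

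Heat shock genes gave ratios past 2-fold for both inducible Hsp70 genes. The proteins of this list fold or hold other proteins. Several of their genes, though not all, are induced by heat shock factor 1 under heat, oxidative and other protein-damaging stress. Hspa1a and Hspa1b, neighbouring genes on chromosome 17 that encode nearly identical Hsp70 chaperones, and Dnajb4, which encodes an Hsp40 partner, are shown by a promoter that holds a match to the motif below, and their ratios were positive in every alternative run. Dnajb1, another Hsp40 gene whose ratio was positive in every alternative, has 2 promoters in the RefSeq table, both with 0 matches. The sequences run from 250 bases before to 50 bases after the start site (RefSeq, GRCm38.p6, minus strand, chr17:34972107-34972406, chr17:34959189-34959488 and chr3:152193796-152194095), and capitals mark a match to GAANNTTC or TTCNNGAA, a pair of heat shock element units that each read the same on both strands.
Hspa1a: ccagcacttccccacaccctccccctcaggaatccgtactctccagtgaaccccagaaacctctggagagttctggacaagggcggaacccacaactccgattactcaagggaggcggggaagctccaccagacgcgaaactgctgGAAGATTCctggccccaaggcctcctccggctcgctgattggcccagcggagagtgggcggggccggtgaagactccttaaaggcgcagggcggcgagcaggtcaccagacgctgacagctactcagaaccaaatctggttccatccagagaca
Hspa1b: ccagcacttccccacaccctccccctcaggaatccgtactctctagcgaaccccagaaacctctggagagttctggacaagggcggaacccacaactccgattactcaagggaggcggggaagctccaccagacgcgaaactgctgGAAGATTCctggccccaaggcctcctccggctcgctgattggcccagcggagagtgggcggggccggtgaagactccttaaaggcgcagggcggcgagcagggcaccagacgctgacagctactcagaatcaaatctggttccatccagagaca
Dnajb4: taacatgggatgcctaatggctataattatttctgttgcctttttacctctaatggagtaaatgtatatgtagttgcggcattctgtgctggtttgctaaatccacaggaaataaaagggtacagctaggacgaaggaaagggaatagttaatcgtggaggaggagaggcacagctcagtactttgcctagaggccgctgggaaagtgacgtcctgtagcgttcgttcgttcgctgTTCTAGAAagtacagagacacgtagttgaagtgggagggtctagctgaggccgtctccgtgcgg

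The Hspa1a and Hspa1b promoters were identical at 296 of 300 bases. Their match began 104 bases before the start site, and that of the Dnajb4 promoter shown began 14 bases before it. Dnajb4 has another start site further upstream, whose promoter (chr3:152210034-152210333) held 0 matches. Of the 17 genes of the heat shock list, 13 had 1 or more promoters in the RefSeq table, 19 promoters in all. Of these 19 promoters 12 (63.2%) held at least 1 match, whereas 15.1% of all 32851 promoters did, and the 12 belonged to 11 genes. Some of these windows share DNA, so the same match can count more than once. The Hsph1 promoters overlap each other, and an Hspd1 promoter overlaps that of Hspe1. Such a match is a description of letters in a window.

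Hspa1a (chr17:34969190-34972156 in GRCm38, protein coding) had 675 CPM in the Cept1 sample and 267 CPM in the control sample, a log2 ratio of 1.34 (1.26 to 1.41). Hspa1b (chr17:34956436-34959238) had 784 CPM in the Cept1 sample and 283 CPM in the control sample, a log2 ratio of 1.47 (1.40 to 1.54). Reads of these near-identical copies can be assigned to either, so the single values are uncertain. Their sum was 9565 UMIs in the Cept1 sample and 4160 UMIs in the control sample, a log2 ratio of 1.41. The ratio kept its sign in each of 13 alternatives for both genes, from 1.15 to 1.83 for Hspa1a and from 1.25 to 2.04 for Hspa1b.

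Hsp70 counts were also spread over more cells. In cells thinned to 2000 UMIs, Hspa1b was found in 52.3% of cells of the Cept1 sample (48.2 to 56.4) and 25.3% of cells of the control sample (21.4 to 29.4), and Hspa1a in 50.6% (46.5 to 54.7) and 31.7% (27.5 to 36.0). Unthinned shares were 74.3% and 60.9% for Hspa1b and 77.4% and 70.8% for Hspa1a. The leukocytes of the same libraries had Hspa1b in 6.39% and 4.68% of thinned cells and Hspa1a in 16.2% and 7.59%. In all other kept cells the log2 ratios were 0.76 for Hspa1b and 0.72 for Hspa1a, so a higher level in the Cept1 sample was not limited to the selected cells.

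Other chaperones were graded. Dnajb4 had 574 CPM in the Cept1 sample and 318 CPM in the control sample, a log2 ratio of 0.85 (0.78 to 0.93), with thinned shares of 64.4% and 43.7%, and 8.89% and 7.13% in leukocytes. Dnaja1, another Hsp40, had a ratio of 0.47, Hsph1, an Hsp110, 0.38 and the cochaperone Bag3 0.34. The constitutive Hsp70 gene Hspa8 was at 0.05 and Hsp90ab1 at -0.01, while Hspa5, the chaperone of the endoplasmic reticulum, was at -0.28. Dnajb1 had a ratio of 0.93, but its thinned share of 14.7% in the Cept1 sample and 7.66% in the control sample was near or below the 13.8% and 12.1% of leukocytes. Over the list, 12 of 17 genes were higher and 5 lower, at a median of 0.24 and 2 past 2-fold higher.

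The immediate early genes, which digestion of tissue can also induce, were split. Of 24 genes, 11 were higher and 13 lower, at a median of -0.08 and none past 2-fold. The median was 0.77 when cells with UMIs of other types were left out and 0.33 in cells without posterior Hox UMIs. Fos had 892 CPM in the Cept1 sample and 1076 CPM in the control sample, a log2 ratio of -0.27, and Junb had one of -0.37. In all other kept cells Fos had a ratio of 0.14. The thinned share of cells with Fos was 37.6% in the Cept1 sample and 30.8% in the control sample, an order opposite to that of the levels, and leukocytes had 75.9% and 52.1%. The ratios of Fos and Junb turned positive, at 0.61 and 0.87, when cells with UMIs of Pecam1, Dcn, Lum, Lyz2, Cd74 or Rgs5 were left out, which left 68 cells of the Cept1 sample and 33 of the control sample.

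Inflammatory genes were higher by median, with a sign that depended on the cells used. Of 20 measured genes, 16 were higher and 4 lower, at a median of 0.27 and 3 past 2-fold higher. The median was -0.45 over the 4 genes measured when cells with UMIs of other types were left out, -0.15 in thinned cells and -0.04 with a filter of 1000 or more genes and up to 5% mitochondrial UMIs. Il6, interleukin 6, had 316 UMIs in 14 cells of the Cept1 sample and 172 UMIs in 21 cells of the control sample (log2 ratio 1.08), and 1 cell held 32.0% of them in the Cept1 sample and 22.7% in the control sample. Its share of thinned cells, 1.69% in the Cept1 sample and 2.07% in the control sample, was below the 2.61% and 3.46% of leukocytes. The chemokine genes Ccl11 and Ccl2 were also past 2-fold, at 1.47 and 1.25. Without the rule on Ptprc, Pdgfra and Cdh5 the Ccl2 ratio was 0.06. Under the stricter cell filter the Il6 ratio was -0.72 and that of Ccl11 -0.21. Interferon response genes numbered 10 higher and 8 lower at a median of 0.05.

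Metabolic lists leaned to lower values by small amounts. Oxidative phosphorylation genes were lower in 24 of 25 cases, with a median of -0.16 and ratios from -0.31 to 0.01, and their median in all other kept cells was -0.10. Glycolysis and hypoxia genes were lower in 17 of 24 cases with a median of -0.22, from the glucose transporter gene Slc2a1 at -0.73 to Pfkfb3, a regulator of glycolysis, at 0.62. Neither list had a gene past 2-fold.

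Sterol synthesis genes were lower in 20 of 23 cases. The median was -0.34 in the selected cells and -0.30 in all other kept cells, none was past 2-fold, and the median stayed negative in each of the 16 alternatives run, from -0.61 to -0.13. Insig1, which holds the sterol sensor in the endoplasmic reticulum, had 98 UMIs in the Cept1 sample and 199 UMIs in the control sample (log2 ratio -0.82, -1.18 to -0.46). Insig1 had a ratio of -0.08 in thinned cells. Scd2, a fatty acid desaturase, had a ratio of -0.69 and Srebf1, a lipogenic transcription factor, one of -0.59.

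Cept1 itself, which encodes the enzyme that joins choline or ethanolamine head groups to diacylglycerol, had 272 UMIs in the Cept1 sample and 267 UMIs in the control sample. These counts correspond to 41.5 and 35.3 CPM and a log2 ratio of 0.23, with an interval of -0.02 to 0.48 that includes 0. In all other kept cells the ratio was 0.39. The thinned share of selected cells with Cept1 UMIs, 8.60% in the Cept1 sample and 6.63% in the control sample, was below that of leukocytes (16.9% and 12.3%). Among 30 measured phospholipid synthesis genes, 12 were higher and 18 lower, at a median of -0.05 and 1 past 2-fold higher. Chpt1, the related cholinephosphotransferase, had 0.09, and Pisd, which makes phosphatidylethanolamine in mitochondria, had -0.70. Genes of the PPAR receptors and their targets numbered 18 higher and 11 lower, at a median of 0.07 and 2 past 2-fold higher, Cd36 at 1.25 and Pparg at 1.10. Without the rule on Ptprc, Pdgfra and Cdh5 the Cd36 ratio was 0.17. Ppara had 28 UMIs in each library, a log2 ratio of 0.21, and Pdk4, a PPAR target that restrains glucose oxidation, had 0.69.

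A transcript of the Rosa26 locus was nearly missing from the selected cells of the Cept1 sample. Gt(ROSA)26Sor, an antisense gene on chromosome 6, had 3 UMIs in the selected cells of the Cept1 sample and 165 UMIs in those of the control sample. It was also lower in all other kept cells of the Cept1 sample, with a log2 ratio of -2.94. Antisense and overlapping genes are uncertain here, since the sources used here do not give how strand was used in counting.

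Among genes with at least 200 UMIs over both libraries, the 15 highest and 15 lowest ratios were described by a rule that left out mitochondrial, ribosomal, haemoglobin and receptor segment genes, unnamed models, and genes that stayed under 0.5 times the level of the remaining cells, judged in the library with the higher level. These genes were chosen by the ratio itself, so it is a description. All 15 highest had a positive ratio both in cells with and in cells without posterior Hox UMIs, and 7 of them were past 2-fold in both. Of the 15 lowest, 12 were negative in both, and 2 were past 2-fold in both. The strata are parts of the same cells whose summed ratio chose these genes, so a shared sign follows largely from the choice. The same counts over all measured genes were not computed, so nothing is read from them.

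**Figure D4:**
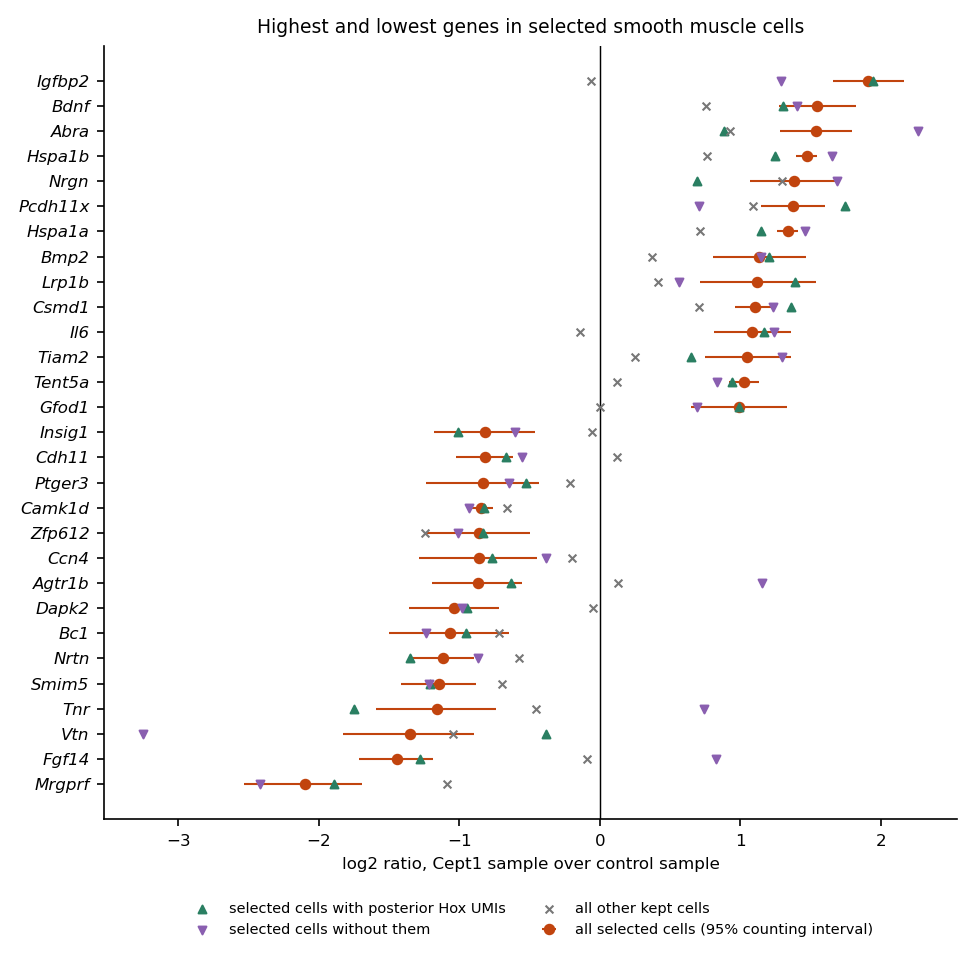
Log2 ratios, the Cept1 sample over the control sample (horizontal), of 14 of the 15 highest and of the 15 lowest genes. Circles with bars are all selected cells with their 95% counting interval, triangles are cells with (up) and without (down) posterior Hox UMIs, and crosses are all other kept cells, in which Igfbp2 (-0.06), Il6 (-0.14) and Gfod1 lie near 0 while Nrgn (1.29) lies near its value in selected cells.

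Igfbp2 (chr1:72824503-72852474, protein coding), which binds insulin-like growth factors, had the highest ratio. It had 556 UMIs in the Cept1 sample and 171 UMIs in the control sample, a log2 ratio of 1.91 (1.66 to 2.16). These UMIs lay in 55 cells of the Cept1 sample and 33 cells of the control sample, and 1 cell of the control sample held 54.4% of its count. The ratio was 2.72 without the top cell of each library and 1.22 without the rule on Ptprc, Pdgfra and Cdh5, and the thinned shares of 4.55% (3.02 to 6.56) and 2.69% (1.44 to 4.56) overlapped.

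Bdnf and Abra were spread over more cells. Bdnf (chr2:109674700-109727007), a neurotrophin, had 393 UMIs in 178 cells of the Cept1 sample and 155 UMIs in 89 cells of the control sample, a log2 ratio of 1.55 (1.28 to 1.83). Abra (chr15:41864076-41869720), which encodes an actin-binding activator of serum response factor signalling, had 448 UMIs in 172 cells of the Cept1 sample and 178 UMIs in 106 cells of the control sample, a log2 ratio of 1.54 (1.28 to 1.80). At equal depth Bdnf was found in 8.43% of cells of the Cept1 sample (6.32 to 11.0) and 3.73% of cells of the control sample (2.22 to 5.83). Abra was found in 9.27% (7.06 to 11.9) and 3.11% (1.75 to 5.07). Leukocytes had 0.156% and 0.127% for Bdnf and 0.078% and 0.0422% for Abra, and in all other kept cells the ratios were 0.76 for Bdnf and 0.93 for Abra.

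Among the remaining highest genes, Nrgn, a calmodulin-binding protein, had a ratio of 1.38, the protocadherin gene Pcdh11x 1.37, Lrp1b, a lipoprotein receptor relative, 1.12, and Csmd1 1.11. Nrgn and Pcdh11x had ratios of 1.29 and 1.09 in all other kept cells. Tiam2, an activator of Rac, had 1.05, Tent5a, a poly(A) polymerase, 1.02 and Gfod1 0.99. Tent5a was the most abundant of these, with 297 CPM in the Cept1 sample and 146 CPM in the control sample, and its ratio in all other kept cells was 0.12. Gfod1 had a ratio of -0.03 in thinned cells, and its level was 0.78 times that of all other kept cells in the Cept1 sample and 0.39 times in the control sample.

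Mrgprf (chr7:145300828-145309557), an orphan G protein-coupled receptor gene, had the lowest ratio. It had 58 UMIs in 51 cells of the Cept1 sample and 287 UMIs in 196 cells of the control sample, a log2 ratio of -2.10 (-2.53 to -1.69). Thinned shares were 2.53% in the Cept1 sample (1.42 to 4.14) and 7.87% in the control sample (5.63 to 10.6). Mrgprf was lower in both Hox strata, at -1.89 and -2.42, and in all other kept cells, at -1.09. Nrtn (chr17:56751325-56757530), which encodes the neurotrophic factor neurturin, had 234 UMIs in the Cept1 sample and 586 UMIs in the control sample (-1.12, -1.34 to -0.90), with thinned shares of 7.08% (5.15 to 9.45) and 12.8% (9.99 to 16.2).

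Vtn, vitronectin, had the lowest ratio of the pericyte marker set at -1.35. It was -0.38 in cells with posterior Hox UMIs and -3.25 in cells without, and 1 cell held 18.9% of the Vtn count of the control sample. Smim5 had a ratio of -1.14, the noncoding RNA Bc1 -1.07 and the kinase gene Dapk2 -1.04. Smim5 and Dapk2 had nearly the same ratio in both Hox strata. Fgf14, an intracellular regulator of sodium channels, had -1.45 overall and 0.83 in cells without posterior Hox UMIs. The latter value rests on 28 UMIs in the Cept1 sample and 11 UMIs in the control sample. Tnr, tenascin R, had -1.16 overall and 0.74 in those cells (36 and 15 UMIs). The angiotensin receptor gene Agtr1b had -0.87 overall and 1.16 in those cells. That Agtr1b value rests on 16 and 5 UMIs, and its interval of -0.36 to 2.96 spans both signs. Cdh11, a cadherin, had -0.82 and Ccn4, a matricellular protein, -0.86, with negative ratios in both strata. Zfp612 had -0.86 in selected cells and -1.25 in all other kept cells.

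Camk1d, with -0.85, was lower in all other kept cells too, and its level was 0.62 times theirs in the Cept1 sample and 0.71 times in the control sample. Other features were also lower throughout the Cept1 sample. Gm42418, which overlaps ribosomal RNA sequence, had 4841 CPM in the Cept1 sample and 8374 CPM in the control sample (-0.79), AY036118 had -1.35, Cmss1 -0.73 and Lars2 -0.74. Their ratios in all other kept cells were -0.66 for Camk1d, -0.60 for Gm42418, -1.13 for AY036118, -0.63 for Cmss1 and -0.82 for Lars2. A part of such reads in the ratios of other genes was not tested.

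H19, an imprinted noncoding RNA of fetal tissue (chromosome 7), had 96 UMIs in 9 cells of the Cept1 sample and 0 UMIs in the control sample. Against the limit of 3 counts over the group that a count of 0 allows, the summed H19 level was at least 36.9-fold higher in the Cept1 sample. This bound takes UMIs as independent and does not cover their clustering in few cells. The share of selected cells with H19 UMIs was 1.49% in the Cept1 sample (0.68 to 2.81). In the control sample it was 0% (0 to 0.725), and these intervals overlapped. One cell held 37 of the 96 UMIs, and all other kept cells had 552 UMIs in the Cept1 sample and 363 UMIs in the control sample.

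Within each library the selected cells varied along a Hox axis. The more posterior genes of each Hox cluster mark the lower body axis in the embryo and stay expressed in the adult aorta towards its abdominal end. The list called posterior here was broader and also held Hoxa7, Hoxc6 and Hoxc8, so cells with its UMIs need not be abdominal. At least 1 UMI of 12 posterior Hox genes was found in 318 cells of the Cept1 sample (52.7%) and 342 cells of the control sample (67.5%). After thinning these shares were 23.8% (20.4 to 27.4) and 26.9% (23.0 to 31.1), with overlapping intervals, and leukocytes had 3.47% and 3.59%. By level, 9 of the 10 measured posterior Hox genes were lower in the Cept1 sample, with a median of -0.56 and none past 2-fold, and their sum was 126 CPM in the Cept1 sample and 183 CPM in the control sample. Hoxc9 had -0.98, Hoxc10 -0.77 and Hoxa7 -0.46. In all other kept cells the median of the list was 0.17.

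A cell without posterior Hox UMIs may have had them missed, the more so at low depth. Cells with them had median totals of 10784 UMIs in the Cept1 sample and 15249.5 UMIs in the control sample, and cells without them had 9999 and 11373 UMIs. The split and its use were chosen after the data had been seen. Ratios across the split are given below as cells with posterior Hox UMIs over cells without, separately in each library. Of 9403 genes measured in the Cept1 sample, 1.89% were at least 2-fold higher and 1.19% at least 2-fold lower in cells with posterior Hox UMIs, and of 9813 in the control sample 2.18% and 1.06%. Among genes with at least 100 UMIs in the selected cells of each library, leaving out the posterior Hox genes and the classes left out above, those with one sign in both libraries were ranked by the smaller of the 2 ratios, and 12 each way were chosen. Tbx20, Hand2 and Ptger3 had under 100 UMIs in 1 or both libraries and were added after their values were seen, with ratios as large as those of genes the rule chose.

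Agtr1b ranked first among genes higher in cells with posterior Hox UMIs. Agtr1b, an angiotensin II receptor, had 29.6 CPM in cells with posterior Hox UMIs and 5.38 CPM in cells without in the Cept1 sample (log2 ratio 2.46), and 45.9 and 2.41 CPM in the control sample (4.25). Thbs1, thrombospondin 1, had ratios of 2.03 in the Cept1 sample and 3.00 in the control sample, and Adamts4, a protease of proteoglycans, had 2.14 and 2.43. Fbln7 had 2.25 and 1.95, Col8a1, a short-chain collagen, 1.90 and 3.00, and the gap junction gene Gja4 2.37 and 1.83. Ptger3 had 2.36 in the Cept1 sample and 2.24 in the control sample.

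Cacna2d3, a calcium channel subunit gene, ranked first among genes lower in cells with posterior Hox UMIs, with ratios of -3.06 in the Cept1 sample and -3.35 in the control sample. Of the added genes, Tbx20 had 5 UMIs in cells with posterior Hox UMIs and 105 UMIs in cells without in the Cept1 sample (log2 ratio -4.66), and 13 and 61 UMIs in the control sample (-3.63). Hand2 had 5 and 81 UMIs in the Cept1 sample (-4.28) and 11 and 68 UMIs in the control sample (-4.03). Tbx20 and Hand2 are transcription factors of the outflow tract and arch arteries in the embryo. Acan, aggrecan, had ratios of -2.07 in the Cept1 sample and -2.02 in the control sample. The calcium channel gene Cacna1d (-1.97 and -1.79) and the Wnt inhibitor gene Wif1 (-2.32 and -1.57) were lower as well.

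**Figure D5:**
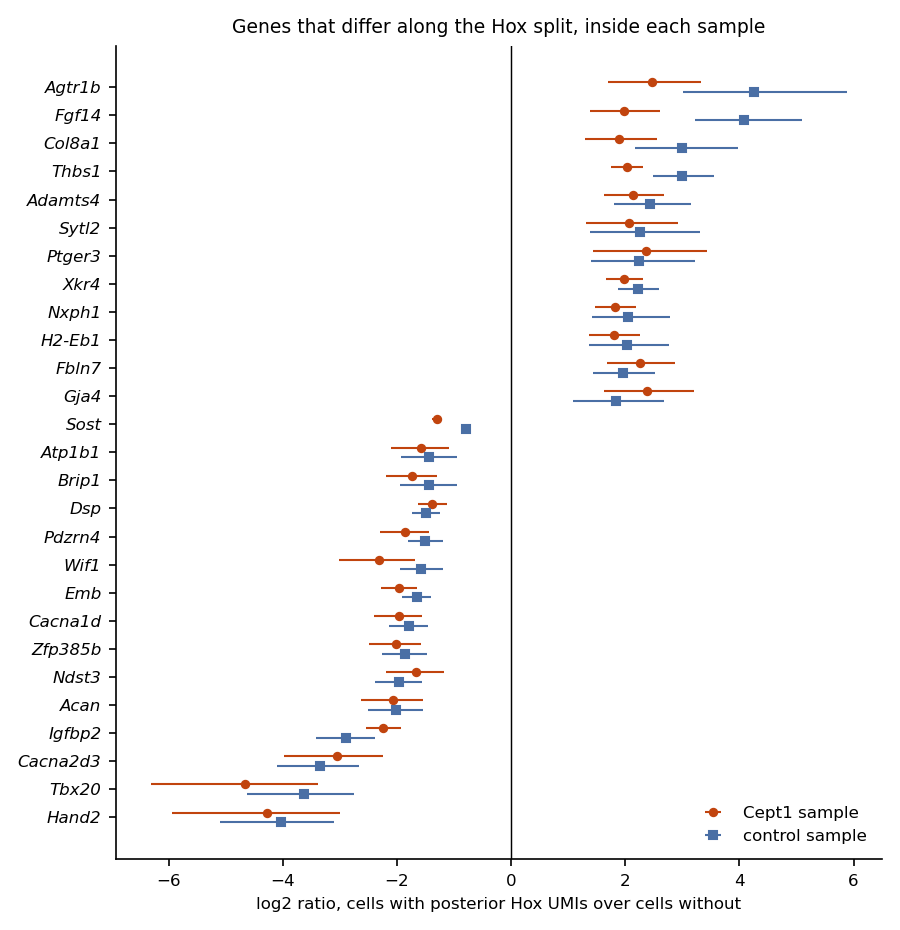
Log2 ratios, cells with posterior Hox UMIs over cells without (horizontal), of 27 genes in the Cept1 sample (circles, drawn above) and the control sample (squares), with 95% counting intervals. The signs are the same in both libraries for every gene drawn, which follows from the rule for 23 of them and was seen after the fact for Tbx20, Hand2, Sost and Ptger3.

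The contractile list had median ratios along the axis of 0.04 in the Cept1 sample and 0.06 in the control sample, with 18 of 27 genes higher and 9 lower in the Cept1 sample and 19 higher and 8 lower in the control sample. Single genes differed, among them Tagln, higher at 0.30 and 0.36 in cells with posterior Hox UMIs. Of the selecting genes, Myh11 was at 0.01 in each library, Npnt at -0.52 and -0.31 and Synpo2, an actin-binding protein gene, at -0.28 and -0.34. Sost had 492 CPM in cells with posterior Hox UMIs and 1207 CPM in cells without in the Cept1 sample (-1.30), and 791 and 1370 CPM in the control sample (-0.79). Fbln5 was lower in cells with posterior Hox UMIs in both libraries, at -0.66 and -0.81, and Fos was higher, at 0.69 and 0.95.

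Several genes that differed between libraries also differed along the Hox axis, and both values stand side by side. Igfbp2, higher in the Cept1 sample, had ratios along the axis of -2.24 in the Cept1 sample and -2.89 in the control sample. Within strata the Cept1 sample was above the control sample for Igfbp2 by 1.95 in cells with posterior Hox UMIs and by 1.29 in cells without, on the log2 scale. For Bdnf these values were 1.30 and 1.40, with axis ratios of -1.07 in the Cept1 sample and -0.97 in the control sample. For Hspa1b they were 1.25 and 1.65 (axis -0.50 and -0.10), and for Hspa1a 1.15 and 1.46 (axis -0.47 and -0.17). The axis interval of Hspa1b in the control sample, -0.23 to 0.04, spans both signs. Abra differed more between strata, at 0.89 and 2.27, with axis ratios of -1.04 and 0.34. Its axis interval in the control sample, -0.18 to 0.88, also spans both signs. The sampled stretch of aorta is the same by label in both groups, and whether the tissue pieces contributed cells in the same proportions was not tested.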

How the data were processed

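Whole aorta was measured by droplet single-cell RNA sequencing in 1 library per group. The deposited values are UMI counts per gene and barcode, made by the authors with Cell Ranger, version 7.2.0 per the file headers; per the submitters' processing notes, Cell Ranger, Seurat and the mm10 build were used. The sources used here do not give the annotation, counting of introns or use of strand. Coordinates come from GENCODE vM21 (GRCm38), which held 32235 of the 32285 feature identifiers.

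Cells with 500 or more genes and a mitochondrial share of up to 10% were kept and selected by the marker rule. UMIs were summed over selected cells per library and divided by all their UMIs. Genes with at least 50 UMIs over both sums were measured. Ratios carry exact 95% intervals (Clopper-Pearson) from the split of UMIs, levels Poisson intervals and shares binomial ones, which cover counting error only. A count of 0 has a limit of 3 counts, or 0.498% of the selected cells in the Cept1 sample and 0.592% in the control sample. With 1 library per group there was no test and no p-value; the code was tested on simulated data. Shares were also computed in cells thinned to 2000 UMIs, which left out 10 and 24 shallower cells.

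Doublets were scored with Scrublet and left in. Its automatic threshold called 0 cells of the control sample, so the threshold of the Cept1 sample (0.237) was used in both and called 18 of 603 and 5 of 507 selected cells. Named genes were Cept1, the selecting and marker genes, the 15 highest and 15 lowest ratios with at least 200 UMIs, up to 4 members of each list with the largest ratio and the 20 most variable genes; other list members and genes along the Hox split were named after their values were seen, and some genes are not reported here. Members and the 25 gene lists were chosen with earlier results of these data known; 1 list gene was not among the features. Alternatives covered the cell filter, the rule, doublets, TMM scaling, cell weights, thinning, marker UMIs of other cells, the Hox strata and the gene minimum. Python 3.11.15, numpy 2.4.6, scipy 1.17.1, pandas 2.3.3, scanpy 1.11.5 and, for TMM, edgeR 4.0.16 in R 4.3.3 were used.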

Additional observations from a re-analysis of the deposited data

How the results depend on the processing

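The contractile median stayed negative in all 16 alternatives, from -0.11 to -0.03, and TMM scaling left the sign of all 146 named genes. The share of kept cells selected, 5.40% in the Cept1 sample and 5.81% in the control sample, became 2.89% and 3.84% with 1000 or more genes and up to 5% mitochondrial UMIs, and 7.73% and 8.44% without the rule on Ptprc, Pdgfra and Cdh5. It was 5.03% in the Cept1 sample and 4.87% in the control sample, the opposite order, with 200 or more genes and up to 20% mitochondrial UMIs. By construction it was 0.609% and 0.378% without cells holding UMIs of other types, 2.85% and 3.92% for cells with posterior Hox UMIs, and 2.55% and 1.89% for cells without. The genes counted as of other types included Rgs5. Its UMIs were found in 57.9% of selected cells of the Cept1 sample and 71.2% of those of the control sample. Cells left out in that run were therefore not all cells with transcripts foreign to smooth muscle. The 96 genes at least 2-fold higher became 60 without cells holding UMIs of other types, 45 in thinned cells, 237 with at least 20 UMIs, 20 with at least 200 and 1072 with 1 UMI in both libraries. The 83 at least 2-fold lower became 53 in cells without posterior Hox UMIs, 148 with equal cell weights, 35 in thinned cells, and 232, 17 and 900 with those gene minimums. Of the named genes measured in each run, 10 of 146 changed sign under the stricter cell filter and 15 of 146 in thinned cells. Without posterior Hox cells 21 of 142 did, and without cells holding UMIs of other types 32 of 122. Reversed ratios among genes past 2-fold included Ccl11 (-0.21) and Il6 (-0.72) under the stricter cell filter, and Fgf14 (0.83) and Tnr (0.74) without posterior Hox cells. Also reversed were Pparg (-1.11) and Trpc6 (-0.69) without cells holding UMIs of other types, and Mmp3 (-0.15) without the rule on Ptprc, Pdgfra and Cdh5. Gene minimums change the number of genes and cell rules the number of cells; the cause was not tested otherwise. The Hox-negative cells and the omission of each gene's top cell were added after seeing the data. No paired analysis was possible because each group has 1 library. Depth limits genes with few UMIs, and a second library per group would be needed to set any ratio against the spread between animals.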

Other observations

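Single cells of the control sample carried other programmes despite passing the selection. One cell held 41 of 43 UMIs of the mesothelial gene Upk3b, and one held all 36 of Msln, both at 0 UMIs in the Cept1 sample. One held 33 of 34 UMIs of the proliferation gene Mki67, where the Cept1 sample had 2 UMIs. Clock genes numbered 10 higher and 8 lower in the Cept1 sample with a median of 0.01, among them Nfil3 at 0.81 and Tef at -0.41. Measured cell cycle and p53 genes numbered 5 higher and 6 lower with a median of -0.10. Anterior Hox and arch genes numbered 8 higher and 2 lower with a median of 0.18, and Tbx20 was at 0.78.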
